A study of Homo sapiens with 40 samples.

Results

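DMKN encodes dermokine, a protein secreted by keratinocytes in the upper layers of the epidermis. The gene lies on human chromosome 19 beside SBSN and KRTDAP, which encode other secreted proteins of stratified epithelium, and it is known for several families of isoforms that differ in start, exon content and end. Pre-mRNA splicing can join the exons of such a gene in different ways. Where the exons of a coding region are multiples of 3 nt, an exon can be left out without a shift of the reading frame behind it.

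The gene was chosen by its number of transcript models in the deposited long-read catalogue, where 20 of 19972 models carried its name, the highest number among 9460 genes. That rank is therefore a description and is not tested. Next below DMKN were APTX, a gene of DNA-strand-break repair, and TMEM218, a transmembrane protein gene, at 17 models apiece, and the median gene had 2. By coding models DMKN, with 15, shared rank 2 with 1 other gene, and by distinct coding regions, with 7, it ranked 42 together with 34 others. It had 19 distinct introns, which ranked 348, against a median of 7 over all genes.

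**Figure D1:**
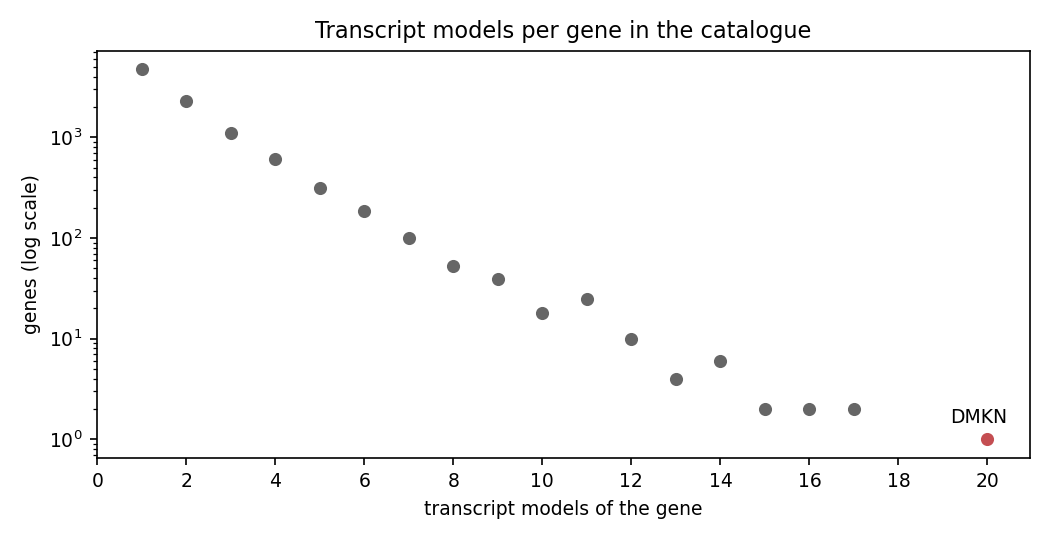
Number of genes (y axis, log scale) with each number of transcript models (x axis) in the catalogue; 1 point per number of models, DMKN in red. The point of DMKN at 20 models stands apart from the 2 genes at 17, and 4729 genes have 1 model.

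The libraries came from neural progenitor cells (NPC), made by dual-SMAD inhibition, and from untreated embryonic stem cells (ESC), both of the established human line H9. RNA was taken from 4 fractions of each cell type, namely the cytosol, single ribosomes (monosome), light polyribosomes with 2 to 4 ribosomes, and heavy ones with at least 5. Each had 2 long-read and 3 short-read libraries, 40 in all. The deposited catalogue pools whatever libraries entered it and holds positions only, with no count per library, so that NPC and ESC, or the fractions, cannot be compared for DMKN and the depth is unknown. A model shows that a chain of introns was accepted into the catalogue, not how often it was read, and the lack of a model says nothing firm about expression. No statistical test is given for the same reason: there are no replicate values to test.

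The 20 models lay on the minus strand of chr19:35497220-35510529. Scaffold names in the catalogue are those of GRCh38. Of 1492 coding starts in the catalogue that fell inside a RefSeq start window of their gene (GRCh38.p14), 1437 (96.3%) read ATG there. RefSeq lists 3 start windows for DMKN, at 35513649, 35510470 and 35501911, called here the distal, middle and internal start. Each of the 20 models began within 100 nt of the middle start, and none within 100 nt of the distal start, 3179 nt upstream of it, or of the internal start, 8559 nt downstream. The 250 bases before each start are shown so that the start near which the models began can be read beside the other two, with motif matches in capitals and the strand of the gene read 5′ to 3′ (RefSeq, GRCh38.p14).
Middle start, chr19:35510471-35510720: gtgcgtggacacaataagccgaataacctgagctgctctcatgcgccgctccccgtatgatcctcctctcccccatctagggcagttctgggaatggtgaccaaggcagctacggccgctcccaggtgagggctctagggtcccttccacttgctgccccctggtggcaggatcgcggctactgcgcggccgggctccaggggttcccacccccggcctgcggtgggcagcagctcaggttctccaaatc
Distal start, chr19:35513650-35513899: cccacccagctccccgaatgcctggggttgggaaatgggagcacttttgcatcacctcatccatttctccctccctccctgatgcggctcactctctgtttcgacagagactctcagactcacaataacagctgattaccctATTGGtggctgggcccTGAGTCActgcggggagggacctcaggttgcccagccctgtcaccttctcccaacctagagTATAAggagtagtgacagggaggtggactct
Internal start, chr19:35501912-35502161: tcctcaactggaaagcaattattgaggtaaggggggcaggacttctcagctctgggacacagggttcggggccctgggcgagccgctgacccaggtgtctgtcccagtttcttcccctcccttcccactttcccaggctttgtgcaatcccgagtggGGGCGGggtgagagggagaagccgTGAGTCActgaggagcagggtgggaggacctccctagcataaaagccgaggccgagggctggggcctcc

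A set of 5 short motifs was searched on both strands, without overlap between matches: TATAA (TATA box), TGAGTCA (AP-1), GGGCGG (GC box), CCAAT and CACGTG (E-box). The distal window held TATAA 31 nt before the start, TGAGTCA 92 nt before it, and CCAAT on the opposite strand 108 nt before it. The internal window held TGAGTCA 69 nt before the start and GGGCGG 93 nt before it. The middle window, the one at which the models began, held none of the 5. Among 35116 RefSeq windows of this length, 18.9% held TATAA, 4.20% the AP-1 motif, 42.6% GGGCGG, 32.0% CCAAT and 6.34% CACGTG. The middle window had 14 CpG dinucleotides, against 4 in the distal and 8 in the internal window and a median of 11 over all windows. A match is a run of letters and not a measured site, and binding was not measured.

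At the middle start the first bases were spread over 102 nt. Of the 20 models 8 began at the RefSeq start itself, 2 upstream of it by up to 59 nt and 10 downstream of it by up to 43 nt, at 9 positions in all. Over all genes with a start in the RefSeq table, 19.8% of models began at the exact base of a RefSeq start. A first base shared with another model of the gene was found for 14 of the 20. Over genes with at least 2 models the share was 36.2%, but a shared end is easier to find in a gene with many models, the value by which DMKN was chosen, so nothing is read from this difference. The labels do not state how 5′ ends were set when the catalogue was made.

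**Figure D2:**
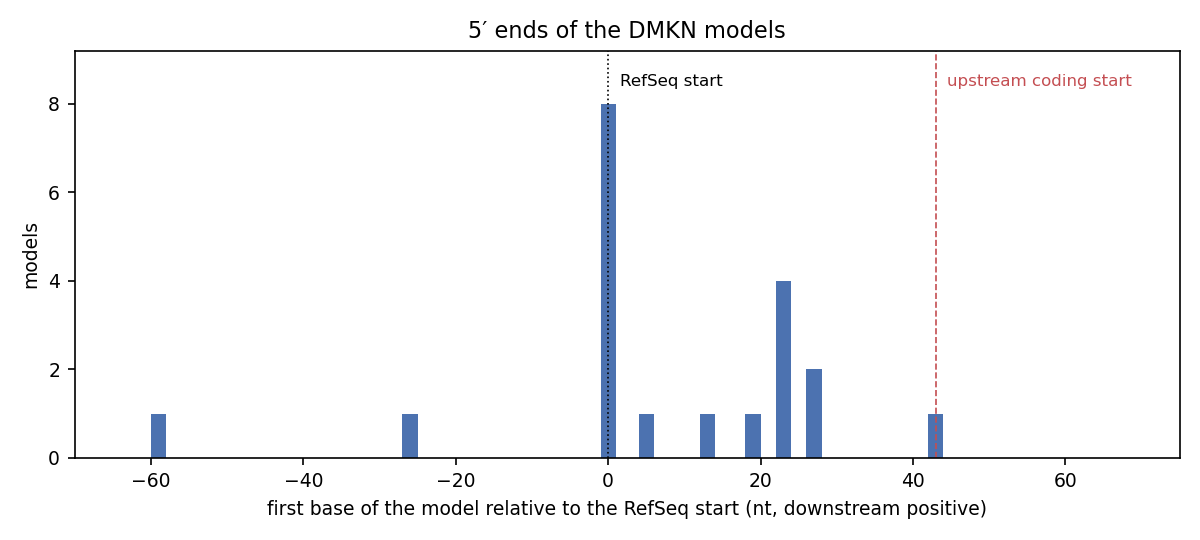
Number of DMKN models (y axis) by the distance of their first base from the middle RefSeq start (x axis, nt, downstream positive). The highest bar is the 8 models at the start; the dashed line marks the upstream coding start, which is also the first base of 1 model.

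The models were built from 29 distinct exons, of which 13 were first, 13 internal and 3 last exons, joined by 19 introns of 108 to 4197 nt. A pair of internal exons of 48 nt each, 35505939 to 35505986 and 35505718 to 35505765, were present in each of the 20 models. Behind them the models parted into a long and a short class. In 14 long models the next exon was one of 57 nt and the RNA ran on to a last exon that ended at 35497220 in 13 models, the last base of the RefSeq gene, and 2 nt short of it in 1 model. In 6 short models the next exon was the last one, 144 nt long, from 35503304 to 35503447. All but 1 of the models thus shared a last base with another. The share over genes with at least 2 models was 53.6%, and here too the number of models per gene bears on it, so the shares are not compared. Long models had 10 to 13 exons and a median of 940 nt (856 to 976 nt), and short models 4 to 6 exons and a median of 442.5 nt (374 to 578 nt).

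The rest of the variety came from choices at 4 places. The first was the end of the first exon. In 9 models it ended at 35510379 (the earlier end), in 8 models at 35510371 (the later end, 8 nt farther), and in 3 models the intron behind it, of 126 or 118 nt by the end used, was kept, so that the first exon ran on to 35510184. The second was a cassette exon of 51 nt, 35509911 to 35509961, which 9 models held and 11 skipped. It was in 6 of the long and 3 of the short models.

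The third and the fourth were cassette exons in the 3′ part of the long models. An exon of 42 nt, 35500378 to 35500419, was in 4 long models and skipped in 10. An exon of 35 nt, 35497647 to 35497681, was in 4 and skipped in 9. The remaining long model, number 1 in the order of the catalogue, had neither and had instead an extended exon of 166 nt, which ran 118 nt past the usual end of a 48-nt exon. Its intron behind this end was the single DMKN intron found in 1 model only.

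Many but not all combinations of these choices were found, and the grids used to count them were drawn after the models had been seen. The earlier or later end of the first exon, the 51-nt exon in or out, and the 42-nt exon, the 35-nt exon or neither give 12 combinations, and each of the 12 was found, once. In the short models the 3 forms of the first exon and the 51-nt exon in or out give 6 combinations, and all 6 were found. The 2 models outside these grids were the long model with the first intron kept, which held no cassette exon, and the model with the extended exon. No model held the 42-nt and the 35-nt exon together, and 8 held 1 of them. If these exons are allowed together, 16 combinations are possible in place of 12, and 12 were found. No intron chain is listed for DMKN more than once, so a combination can appear once at most.

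Among the 3 pairs of cassette exons, those of the 51-nt exon with the 42-nt and with the 35-nt exon showed all 4 combinations of in and out. In both pairs 2 of 14 long models held both exons, 4 only the 51-nt exon, 2 only the other one, and 6 neither. The pair of the 42-nt and 35-nt exons showed 3 of 4, with 4 models holding the one, 4 the other and 6 neither. Over all genes 18.5% of 1222 such pairs with at least 4 informative models showed all 4 combinations. More models give more chances to show each combination, and DMKN was chosen by its number of models, so nothing is read from this difference.

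**Figure D3:**
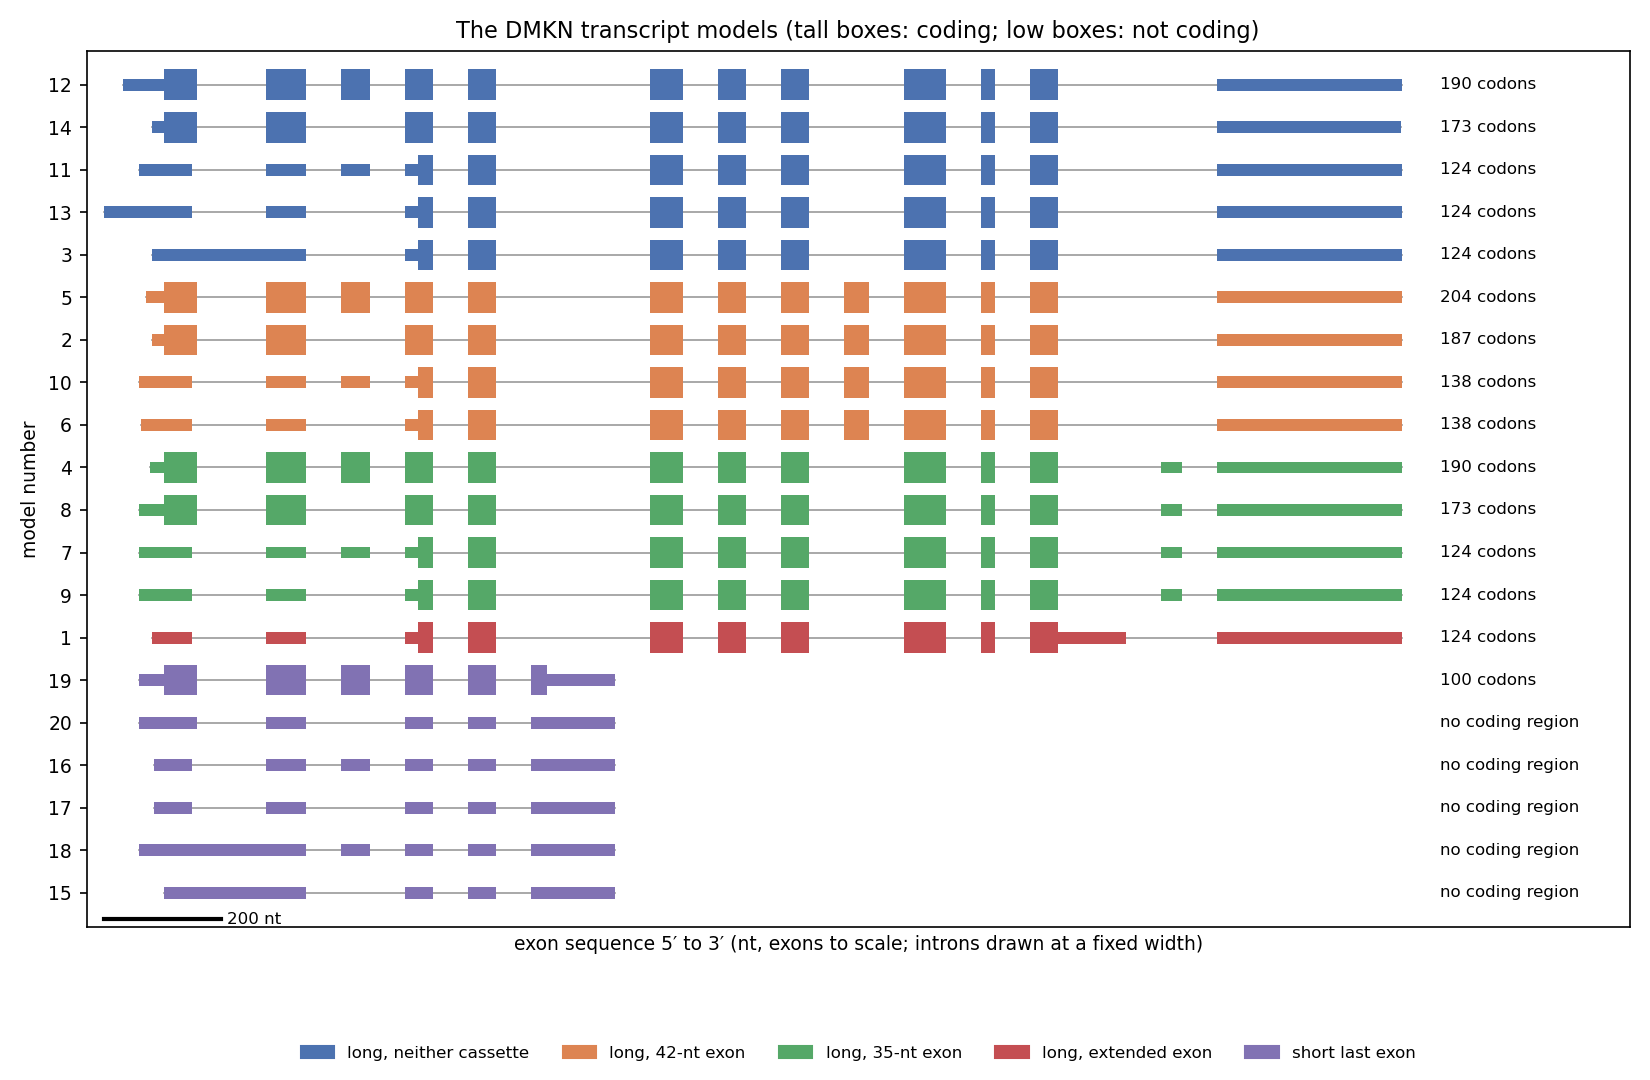
The 20 DMKN models (y axis, number in the order of the catalogue, grouped by 3′ part) drawn 5′ to 3′ with exons to scale (x axis, nt) and introns at a fixed width; tall boxes are coding, low boxes are not, and colours mark the 3′ part. The 14 long models share the exons from the 57-nt exon on, apart from the 42-nt and 35-nt cassettes and the extended exon of model 1, and the 6 short models end in the 144-nt exon.

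A coding region was given for 15 of the 20 models. Reading began at 1 of 2 positions, which went with the form of the first exon. The upstream start, 35510427, lay in the first exon of each of the 20 models. It is shown with its ATG in capitals (RefSeq, GRCh38.p14, minus strand).
Upstream coding start, chr19:35510421-35510448: cggccacacctggccttctccATGctcg

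Of the 8 models with the later end of the first exon, 7 were coding from the upstream start and 1 had no coding region. Of the 9 models with the earlier end, none was coding from it, 7 were coding from a downstream start at 35505965 and 2 had no coding region. Of the 3 models with the first intron kept, 1 was coding from the downstream start and 2 had no coding region. The upstream start was thus used in 7 of the 15 coding models and the downstream one in 8, with no overlap between forms of the first exon.

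The positions show how the frame differs. From the upstream start to the later end of the first exon there are 57 nt, or 19 codons. To the earlier end there are 49 nt, 1 more than a multiple of 3. In each of the 12 models with the earlier end or the kept intron, the distance from the upstream start to the stop position of its class was 1 more than a multiple of 3, and in each of the 8 models with the later end it was a multiple of 3. The downstream start lay 7 codons into the first of the 48-nt exons found in each model. It was in frame with the upstream start in the 8 models with the later end, and out of frame with it in the 12 others. Where reading from the upstream start would end in the models with the earlier end was not analysed here, and no use of either start was measured.

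Reading in the 14 long models ended at 1 position, 35498716. The upstream start gave 204 codons with the 51-nt and 42-nt exons, 190 with the 51-nt exon alone, 187 with the 42-nt exon alone and 173 with neither. The downstream start gave 138 codons with the 42-nt exon and 124 without it. The 51-nt exon lies before the downstream start, so in models read from there it is untranslated. The 35-nt exon lies behind the stop, here the last base of the deposited coding region, in each model that holds it. The last coding base was followed by the 35-nt exon in 4 long models and by the last exon in 9. In model 1 it was followed by bases that were intron in the other long models. If the region left out the stop codon, each of these stretches would have to open with a stop codon. Their bases were not read here. The most frequent coding region, of 124 codons, was in 6 models, and codons are counted as deposited. Before the coding region lay 20 to 69 nt in models read from the upstream start (median 30 nt) and 159 to 285 nt in those read from the downstream start (median 233 nt).

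**Figure D4:**
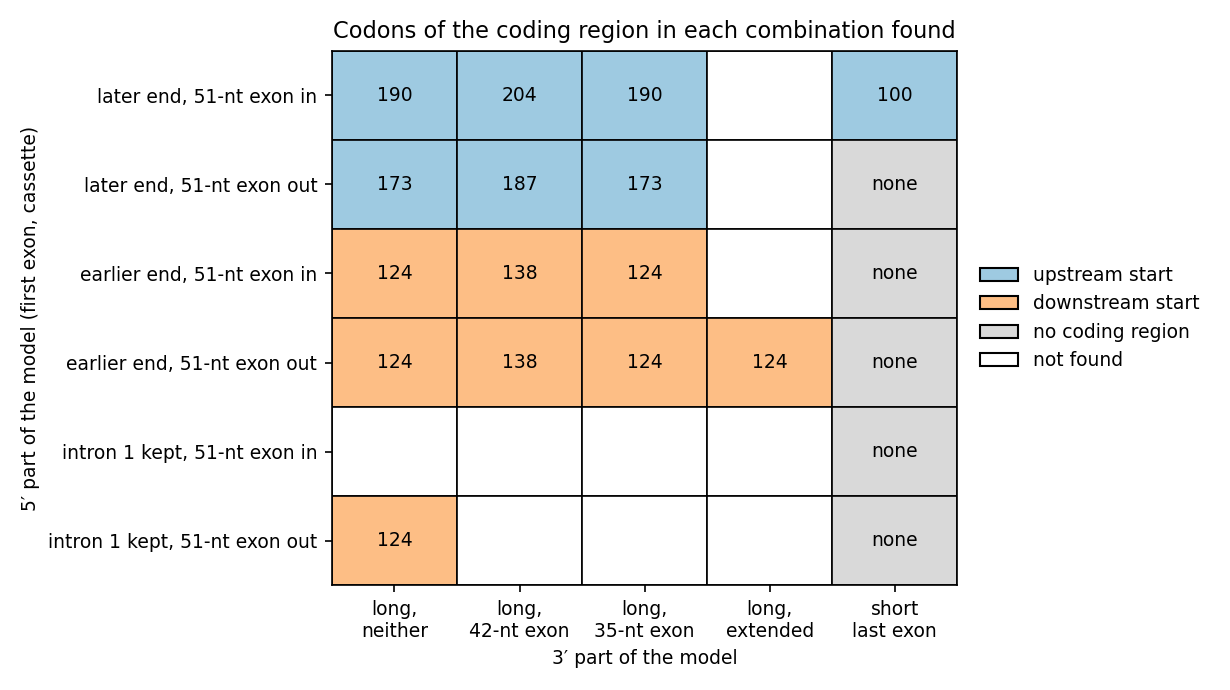
Codons of the coding region in each combination of 5′ part (y axis, form of the first exon and 51-nt exon) and 3′ part (x axis); blue cells start at the upstream and orange cells at the downstream coding start, grey cells have a model without coding region, white cells have no model. The 3 left columns of the upper 4 lines are filled in all 12 cells, and the upstream start appears only with the later end.

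Of the 6 short models, 1 had a coding region, of 100 codons. It had the later end and the 51-nt exon, and its last 9 codons lay in the 144-nt exon, up to 35503421. The short model with the later end but without the 51-nt exon had no coding region, although the same start and stop positions lay 83 codons apart in it. In the other 4 short models the downstream start lay 34 codons before that stop, in frame. Over DMKN 5 of 20 models had no coding region, all of them short, against 13.6% over the catalogue.

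The exons inside the DMKN coding regions were uniform in frame. The 11 internal exons that lay wholly inside a coding region were 24, 42, 48, 51, 57, 69 or 72 nt long, each a multiple of 3, against 38.4% of 50816 such exons over all genes. Of the 11, 5 were 48 nt, or 16 codons, a length that 0.348% of those exons over all genes had, and no other gene had 5 exons of this length. All 14 distinct introns inside the coding regions lay between codons (phase 0), as did 46.3% over all genes. Lengths that are multiples of 3 follow from introns of 1 phase, so these are not separate observations. The 2 cassette exons inside coding regions, of 51 and 42 nt, were multiples of 3 and the one behind the stop, of 35 nt, was not, and over all genes 40.4% of cassette exons were.

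Few genes had this pattern in all exons or introns counted. Those counted are the ones in the models and need not be all those of the gene. Among genes with at least 10 internal exons wholly inside a coding region, 3 of 1802 (0.166%) had lengths in multiples of 3 only. They were DMKN and the collagen gene COL1A1, with 11 such exons each, and ASPH, which encodes an aspartate hydroxylase, with 13. Among genes with at least 10 introns inside coding regions, 3 of 2395 (0.125%) had all of them in phase 0, namely DMKN, NFYC, which encodes a subunit of the CCAAT-binding factor NF-Y, and the splicing factor gene PRPF18. DMKN was the 1 gene in both, but the minimum of 10 decides this. Introns all in phase 0 give exons in multiples of 3. What kept NFYC and PRPF18 out of the first count was thus its minimum of 10 exons, and nothing is read from DMKN being in both. These genes were named after their values were seen.

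**Figure D5:**
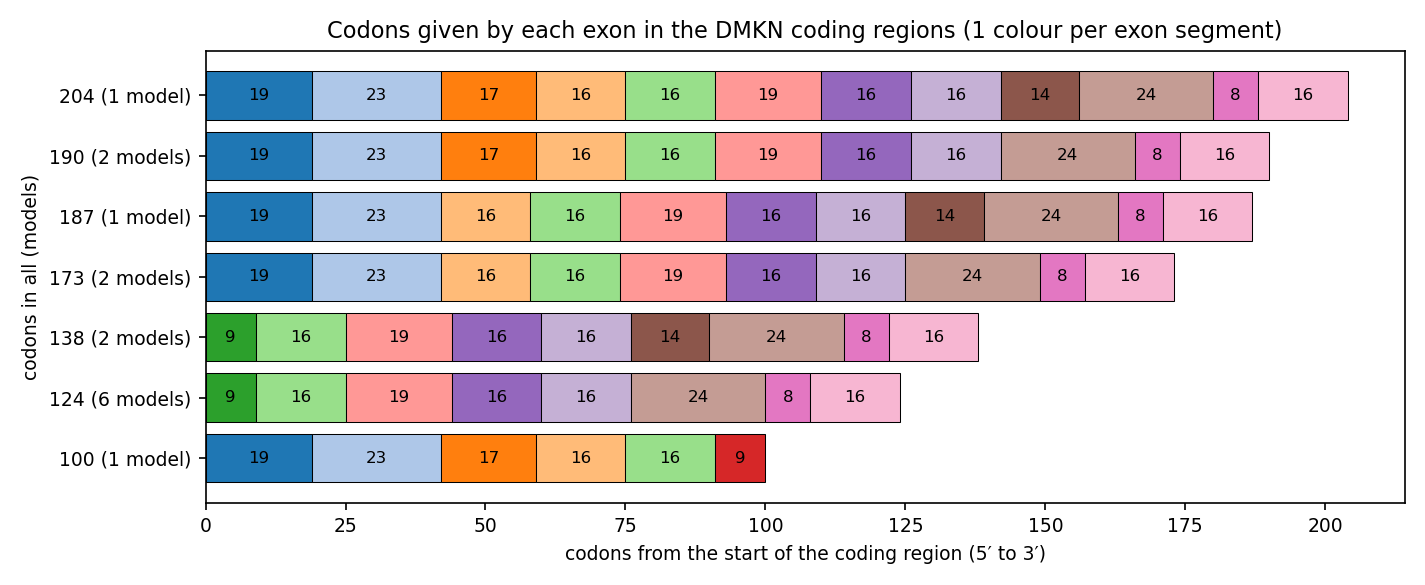
Codons that each exon contributes (x axis, in order from the start) to the 7 distinct coding regions of DMKN (y axis, all codons, with the number of models); 1 colour per exon segment. Each segment is a whole number of codons, 5 regions open with the 19 codons of the first exon and 2 with 9 codons from the downstream start.

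The shared stop at 35498716 was the last base of a 48-nt exon in 13 of the 14 long models. In the model with the extended exon the coding region ended at the same base, inside the exon. A coding region that ends at the last base of an exon other than the last was found in 42 of 17247 coding models (0.244%), and 13 of the 42 were those of DMKN. In the model with the extended exon the stop lay 118 nt upstream of the last junction, which made it the single DMKN model past 50 nt, the distance used here to name candidates for nonsense-mediated decay (1 of 15 coding models, 6.67%, against 3.14% over all genes). In the 4 models with the 35-nt exon the distance was 35 nt. Both distances run from the last base of the deposited coding region, and whether it includes the stop codon is unstated. The rule describes positions, and decay was not measured.

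The exon boundaries can be read in one place. The 48-nt exon from 35502136 to 35502183, present in the 14 long models, reaches into the window of the internal RefSeq start, and its end and the first bases of the intron are shown with the intron's first 2 bases in capitals (RefSeq, GRCh38.p14, minus strand).
End of the 48-nt exon, chr19:35502122-35502161: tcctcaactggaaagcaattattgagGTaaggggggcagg

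Few genes of an epidermal list, which was not chosen by position, and few genes near DMKN had a model. Of 48 genes in a list of epidermal and cornified envelope genes, 2 had a model (4.17%), ALOX12B, which encodes an epidermal lipoxygenase, and PPL, which encodes periplakin of the cornified envelope, at 1 model each. Among the other 20007 RefSeq coding genes 8406 had one. The cluster neighbours SBSN and KRTDAP had none. Both are on the epidermal list and also among the RefSeq genes near DMKN, so the list and the neighbourhood overlap. None of 6 keratinocyte markers, KRT5, KRT14, KRT1, KRT10, IVL and TP63, had a model. All 6 are also on the epidermal list, so this is not a separate observation. Of 7 pluripotency markers 6 had a model, among them POU5F1 and NANOG, but LIN28A had none. Of 6 neural progenitor markers 4 had a model, among them PAX6 and NES, but SOX1 and LHX2 had none. Of the 7 RefSeq coding genes within 100000 nt of the DMKN models only TMEM147, a gene for a membrane protein of the endoplasmic reticulum, had models. The nearest entries of the catalogue were TMEM147-AS1, with 2 models at a gap of 30209 nt, and TMEM147, with 2 models at 35073 nt, and the other 2 entries within that distance had 1 model each. No model of another gene overlapped those of DMKN.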

How the data were processed

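The authors deposited 1 catalogue of transcript models in which each line names PacBio as its source. The values used are genome positions, in nt: where each model, exon and coding segment begins and ends. Per the labels' protocols the libraries were poly A+ Frac-seq libraries made with a strand-specific kit, and the long-read ones used R2C2. Per the submitters' processing notes STAR 2.7.8a and Salmon 1.9.0 were used, with no role stated. The sources used here name neither the genome build nor the software behind the models and their coding regions. Which libraries entered the catalogue, and whether a stop codon is counted in a coding region, are likewise unstated.

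From these positions lengths, introns, frames and ends were computed with Python 3.11.15 and numpy 2.4.6, and figures were drawn with matplotlib 3.10.9. A cassette exon is an internal exon whose flanking splice sites are joined directly in another model of its gene. The functions were checked on a made-up catalogue. Gene symbols and start windows came from RefSeq (GRCh38.p14), and aliases were used for list genes only where the alias is no RefSeq symbol itself. Genes beside DMKN were named where they were on the epidermal list with a model, lay within 100000 nt, or were among the 5 nearest by Euclidean distance over 5 values (log2 models, log2 introns, cassette exons, coding regions, first-exon groups), scaled to an SD of 1 across genes with at least 10 models. Markers of the cell types and list genes without a model were named from the fixed lists. TMEM218, level with APTX next below DMKN in number of models, and COL1A1, ASPH, NFYC and PRPF18, from the counts of genes with all exons or introns in frame, fall outside this rule and were named after their values were seen.

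DMKN and the gene lists were chosen with earlier results of these data known. Several further measures were chosen after the DMKN models or sequences had been seen: the pairs of cassette exons, the grid of combinations, the counts of genes with all exons in frame, the 48-nt exons, coding regions that end with an exon, shared ends, distances to RefSeq starts, and the 5 motifs. Other measures were also looked at, so these are descriptions only.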

Additional observations from a re-analysis of the deposited data

How the results depend on the processing

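Of 15 alternatives, 10 left the count within 1.5 times the one reported. Counting DMKN models once per coding region, which leaves out the 5 models without one, gave 7 in place of 20. Comparing first and last exons by splice site gave 18 distinct exons in place of 29, and telling first exons apart by splice site gave 3 in place of 1 group of overlapping exons. With any distance upstream of the last junction 5 models, in place of 1, were decay candidates, the added ones being those with the 35-nt exon. With at least 2 models required, 0 of the epidermal genes were left, in place of 2. No paired analysis was possible because the catalogue holds no value per library, and no replicate could be left out for the same reason. Genes near DMKN were counted under 1 setting. Read length and depth limit which isoforms were seen, and absence of a combination is not shown.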

Other observations

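By likeness in 5 values (models, distinct introns, cassette exons, distinct coding regions and groups of first exons) among the 70 genes with at least 10 models, the gene nearest to DMKN was ZBTB8OS, at a distance of 1.85 on the scaled values, with 16 models, 16 introns and 4 coding regions. APTX followed at 1.93, with 17 models and 6 coding regions, then HSD11B1L at 2.11, with 15 models and 7 coding regions, ZSWIM7 at 2.13 and CERS4 at 2.6. Likeness describes the number of forms and says nothing of function.

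The DMKN models spanned 13310 nt of the genome, and the RefSeq gene spans 16430 nt, with the distal start upstream of the models. RefSeq lists 56 transcripts for the gene, and they were not compared with the models.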
